A study of Mus musculus with 6 samples.

Results

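The genes described are the mouse VEGF ligands Vegfa, Vegfb, Vegfc and Pgf, the VEGF receptors Flt1, Kdr and Flt4, and the neuropilins Nrp1 and Nrp2. They were taken from the table of read counts by the Ensembl identifiers that belong to these symbols, and all 9 were found among its 38293 genes. All 9 also passed the filter on low counts that left 14746 genes for testing. The rule for choosing them was gene identity and used no measured value, although earlier results of these data were known.

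RNA-seq had been performed on cardiac tissue of 3 mice labelled WT and 3 mice labelled Zeb2 cKO, 14 days after myocardial infarction (MI), which was induced by permanent occlusion of a coronary artery in adult male mice. The study's methods describe the WT mice as Zeb2 fl/fl, so both groups carried floxed Zeb2 alleles. Zeb2 cKO mice carried in addition a Cre recombinase driven by the Myh6 promoter, which is active in cardiomyocytes, whereas the sequenced RNA came from all cells of the tissue. The labels place that tissue in the border region of the infarct and the methods place it in the remote zone, and which is right cannot be told here. The study asked whether ZEB2 in cardiomyocytes affects the vessels of the injured heart, which makes the main angiogenic growth factor system of interest in this comparison.

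VEGF ligands are secreted dimers that bind receptor tyrosine kinases on endothelial cells. VEGFA, which cardiomyocytes and other cells make and which hypoxia induces through HIF, binds KDR (VEGFR2), the main receptor for endothelial growth, migration and permeability, and FLT1 (VEGFR1), which binds it tightly, signals weakly and also occurs as a soluble decoy. PGF and VEGFB bind FLT1, VEGFC binds FLT4 (VEGFR3) and drives lymphatic growth, and the neuropilins are co-receptors that also bind semaphorins.

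Depth and the makeup of the libraries bear on all values. Total counts ranged from 37288174 to 51136331 per library, of which 60.5% to 67.0% fell on mitochondrially encoded genes. Zeb2 fl/fl replicate 2 stood apart: its mean correlation with the other libraries over log2 CPM (counts scaled to the size of the library) was 0.943, against 0.973 to 0.979 for the others. All 10 fibroblast markers and 13 of 15 macrophage markers were highest in this library, and 12 of 13 cardiomyocyte markers were lowest in it. Its summed level was 9912 CPM for the fibroblast markers, against 1762 to 2419 CPM elsewhere, and 37454 CPM for the cardiomyocyte markers, against 59320 to 72540 CPM elsewhere. No cardiomyocyte, endothelial, fibroblast or macrophage marker was at 0 in all libraries. The part of these cell types in the results was not tested, and the values of the genes are therefore given with and without this library. In bulk tissue, fewer cells of a type and less RNA per cell cannot be told apart.

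The deleted gene did not separate the groups. Zeb2 measured 61.3, 116.0 and 71.9 CPM in hearts of the Zeb2 fl/fl group, against 59.6, 72.6 and 66.5 CPM in Zeb2 cKO hearts, with a fitted log2 change of -0.33 (SE 0.25, edgeR adjusted p = 0.957) that was -0.0058 without Zeb2 fl/fl replicate 2. These counts cover the whole gene in all cells and so do not check the labels of single libraries. Pecam1, an adhesion molecule of endothelial cells, measured 99.9, 73.6 and 93.9 CPM in hearts of the Zeb2 fl/fl group, against 90.1, 104.1 and 101.9 CPM in Zeb2 cKO hearts. Its log2 change was 0.15 (SE 0.16, edgeR adjusted p = 0.957), and 0.029 without that library.

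No difference between Zeb2 fl/fl and Zeb2 cKO hearts was detected for any of the 9 genes. By edgeR's quasi-likelihood test 0 of 9 passed an adjusted p of 0.05, and 0 of 9 had an unadjusted p under 0.05, against 0% and 1.9% of all tested genes. The adjusted p of the 9 genes lay between 0.957 and 0.999. DESeq2 also called 0 of 9 at either limit. Without Zeb2 fl/fl replicate 2 edgeR again called 0 of 9 at the unadjusted limit, against 2.63% of all tested genes. The fitted changes lay between -0.27 (Flt4) and 0.27 (Kdr) on the log2 scale, where a positive value means a higher level in Zeb2 cKO. Of the 9 values 6 were above 0, and 48.6% of all tested genes were. A missed threshold does not show equal levels, and the 95% confidence intervals given below say which changes the 3 hearts per group leave possible. The widest interval, as a log2 range, was that of Kdr, from 0.778-fold to 1.87-fold, and the narrowest was that of Flt4, from 0.648-fold to 1.07-fold.

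**Figure D1:**
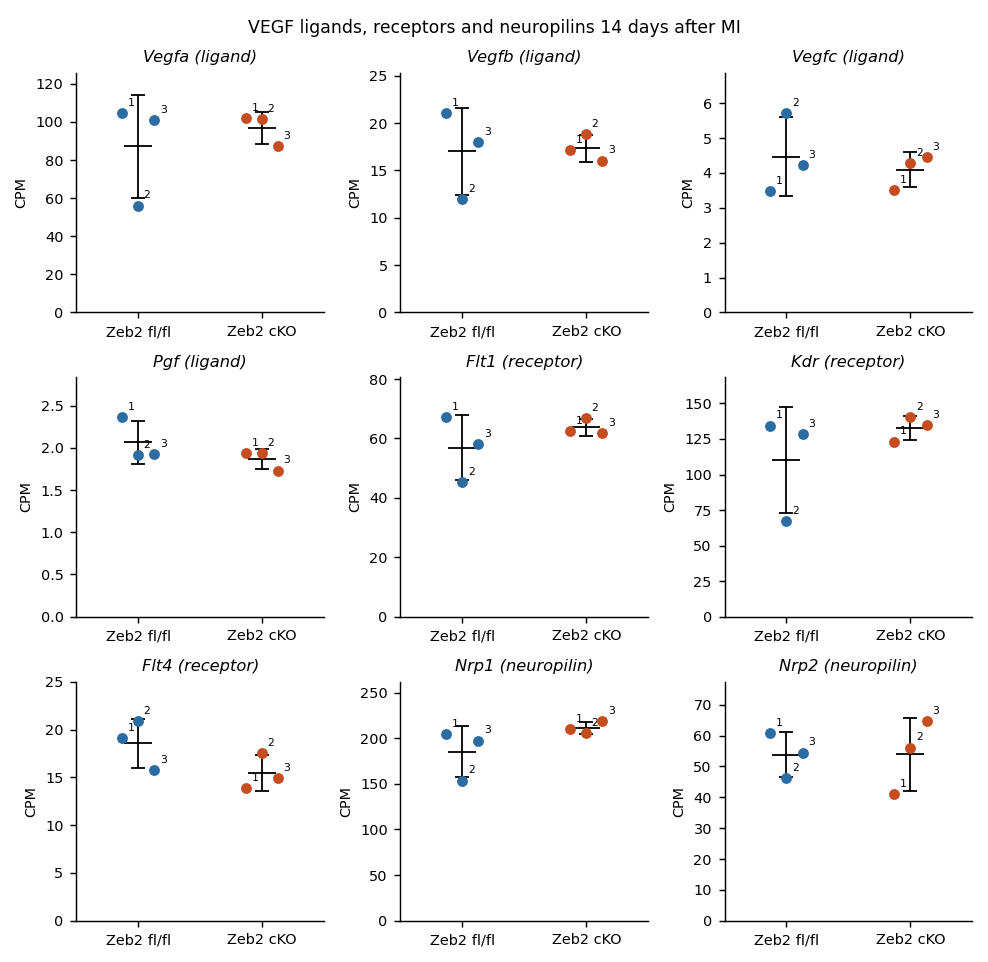
Each panel plots 1 gene in CPM, with a numbered point per library, the mean as a horizontal line and the SD as whiskers, for 3 Zeb2 fl/fl (WT) and 3 Zeb2 cKO hearts. Zeb2 fl/fl replicate 2 is the lowest point for 5 genes and the highest for 2, and only the 3 Zeb2 cKO points of Nrp1 all lie above the Zeb2 fl/fl points.

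The promoters of 4 of these genes are shown, since the study concerns a DNA-binding repressor and activator of transcription and since these genes hold the main roles: the ligand of blood vessels (Vegfa), its receptors (Kdr and Flt1) and the ligand of lymphatic vessels (Vegfc). Sequences are those of RefSeq on GRCm38.p6, on the strand of the gene, and cover up to 250 bases before the start of the gene. They lie at chr17:46032378-46032627 (minus strand, Vegfa), chr5:75978459-75978705 (minus strand, Kdr), chr5:147726012-147726261 (minus strand, Flt1) and chr8:54077282-54077531 (plus strand, Vegfc). Capitals mark the half-site CACCT that ZEB proteins bind and the core ACGTG or GCGTG that HIF binds, each searched on both strands.
Vegfa: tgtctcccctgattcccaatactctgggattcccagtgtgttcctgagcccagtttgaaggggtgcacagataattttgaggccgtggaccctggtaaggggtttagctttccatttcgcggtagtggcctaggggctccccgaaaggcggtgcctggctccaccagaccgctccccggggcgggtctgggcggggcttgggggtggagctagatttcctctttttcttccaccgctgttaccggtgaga
Kdr: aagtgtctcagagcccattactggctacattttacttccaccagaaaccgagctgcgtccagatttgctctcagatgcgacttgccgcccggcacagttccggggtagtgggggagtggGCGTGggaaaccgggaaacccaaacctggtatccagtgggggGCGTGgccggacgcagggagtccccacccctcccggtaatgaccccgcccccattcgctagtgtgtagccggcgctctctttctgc
Flt1: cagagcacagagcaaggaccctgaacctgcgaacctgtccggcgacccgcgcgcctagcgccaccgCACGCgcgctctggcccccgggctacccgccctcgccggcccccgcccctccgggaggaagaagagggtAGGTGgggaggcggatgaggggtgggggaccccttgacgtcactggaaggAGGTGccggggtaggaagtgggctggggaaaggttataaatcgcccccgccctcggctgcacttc
Vegfc: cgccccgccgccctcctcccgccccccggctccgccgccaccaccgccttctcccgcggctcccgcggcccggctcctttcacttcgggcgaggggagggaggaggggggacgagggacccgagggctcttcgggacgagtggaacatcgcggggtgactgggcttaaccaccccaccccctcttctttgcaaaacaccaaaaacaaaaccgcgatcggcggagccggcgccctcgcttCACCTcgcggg

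The stretch before Vegfa held neither set of letters, although it held GGGCGG, the letters of an SP1 box, at 2 places. Before Kdr there were 2 matches of GCGTG, before Flt1 there were 2 of CACCT and 1 of GCGTG, and before Vegfc there was 1 of CACCT. Over all 9 genes the ZEB half-site occurred in 6 windows of 250 bases and the HIF core in 6, where 46.0% and 38.6% of 32851 mouse promoters held them. The longer E-box CACCTG, which contains the half-site, occurred in 2 of 9 windows (17.2% of all promoters), and GGGCGG in 9 of 9 (32.7%). The windows of Pgf and Flt4 lay wholly inside exons of the Gencode annotation, which starts these genes further upstream. A match describes these letters only and is no evidence of binding.

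Among the ligands, Vegfa (ENSMUSG00000023951, chr17:46016993-46032369, GRCm38, minus strand) had by far the most reads. It measured 104.6, 56.0 and 101.0 CPM in hearts of the Zeb2 fl/fl group (replicates 1 to 3 in order), against 101.8, 101.6 and 87.2 CPM in Zeb2 cKO hearts. Only Zeb2 fl/fl replicate 2 lay apart, and the Zeb2 cKO values lay between the lowest and the highest Zeb2 fl/fl value. Group means were 87.2 ± 27.1 CPM and 96.9 ± 8.38 CPM (SD, n = 3 each; exact permutation p = 0.8). The fitted log2 change was 0.15 (SE 0.25, 95% interval -0.43 to 0.74). Without Zeb2 fl/fl replicate 2 it was -0.083, with an interval from -0.34 to 0.17. The counts cover the whole gene, so that splice forms of different length cannot be told apart.

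Vegfb (ENSMUSG00000024962, chr19:6982473-6987651, minus strand), a ligand of FLT1 that is abundant in heart muscle, followed the same pattern over libraries. It measured 21.1, 12.0 and 18.0 CPM in hearts of the Zeb2 fl/fl group, against 17.1, 18.9 and 16.02 CPM in Zeb2 cKO hearts. Again the lowest value was that of Zeb2 fl/fl replicate 2, and the groups overlapped (exact permutation p = 0.9). The means of 17.0 ± 4.63 and 17.3 ± 1.43 CPM (SD, n = 3) differed by 0.028 on the log2 scale in the fit (SE 0.21, interval -0.47 to 0.53), and by -0.17 without that library.

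Vegfc (ENSMUSG00000031520, chr8:54077606-54187096, plus strand) ran the other way. The lymphatic ligand measured 3.48, 5.72 and 4.22 CPM in hearts of the Zeb2 fl/fl group, against 3.52, 4.29 and 4.47 CPM in Zeb2 cKO hearts, so that Zeb2 fl/fl replicate 2 was here the highest. Means were 4.47 ± 1.14 and 4.09 ± 0.504 CPM (SD, n = 3; exact permutation p = 0.9). The log2 change of -0.13 (SE 0.22, interval -0.64 to 0.38) became 0.091 without that library.

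Pgf (ENSMUSG00000004791, chr12:85166635-85177790, minus strand), placental growth factor, was the lowest of the ligands. It measured 2.36, 1.91 and 1.93 CPM in hearts of the Zeb2 fl/fl group, against 1.94, 1.94 and 1.73 CPM in Zeb2 cKO hearts, from 74 to 97 reads per library. Counting error alone amounts to 10.2% to 11.6% at these read numbers, while the CV was 12.4% in the Zeb2 fl/fl group and 6.38% in the Zeb2 cKO group. With a log2 change of -0.15 (SE 0.18, interval -0.57 to 0.28; exact permutation p = 0.6), no difference was detected. For Pgf, Zeb2 fl/fl replicate 2 did not stand apart, and the value without it was -0.20.

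Of the receptors, Flt1 (ENSMUSG00000029648, chr5:147561604-147726011, minus strand) measured 67.1, 45.3 and 58.2 CPM in hearts of the Zeb2 fl/fl group, against 62.4, 66.9 and 61.8 CPM in Zeb2 cKO hearts. All 3 Zeb2 cKO values lay between the lowest and the highest Zeb2 fl/fl value. Means were 56.9 ± 10.97 and 63.7 ± 2.785 CPM (SD, n = 3; exact permutation p = 0.5), and the log2 change was 0.16 (SE 0.16, interval -0.23 to 0.55). Without Zeb2 fl/fl replicate 2 it was 0.026. Membrane-bound and soluble FLT1 come from the same gene and are counted together here.

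Kdr (ENSMUSG00000062960, chr5:75932827-75978458, minus strand) had the largest fitted change above 0 and depended most on a single heart. It measured 134.4, 66.9 and 128.6 CPM in hearts of the Zeb2 fl/fl group, against 123.2, 140.3 and 134.7 CPM in Zeb2 cKO hearts. Zeb2 fl/fl replicate 2 was 0.98 lower on the log2 scale than the mean of the other 5 libraries, whose SD was 0.072. The group means of 110.0 ± 37.4 and 132.7 ± 8.70 CPM (SD, n = 3; exact permutation p = 0.4) gave a log2 change of 0.27 (SE 0.27, interval -0.36 to 0.90). Without that library the change was 0.016, with an interval from -0.22 to 0.26.

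Flt4 (ENSMUSG00000020357, chr11:49609263-49652739, plus strand), the receptor of VEGFC on lymphatic endothelium, had the smallest unadjusted p of the 9 genes. It measured 19.1, 20.8 and 15.8 CPM in hearts of the Zeb2 fl/fl group, against 13.9, 17.5 and 14.9 CPM in Zeb2 cKO hearts, so that Zeb2 cKO replicate 2 lay above Zeb2 fl/fl replicate 3 and the groups overlapped. Means were 18.6 ± 2.58 and 15.5 ± 1.88 CPM (SD, n = 3; exact permutation p = 0.2). The log2 change was -0.27 (SE 0.15, interval -0.63 to 0.093, edgeR unadjusted p = 0.123, adjusted p = 0.957). It stayed below 0 whichever library was left out, between -0.37 and -0.17, with -0.17 without Zeb2 fl/fl replicate 2. The 5 lymphatic markers measured summed to 84.8 to 109.9 CPM in the Zeb2 fl/fl group and to 77.6 to 104.7 CPM in the Zeb2 cKO group.

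Nrp1 (ENSMUSG00000025810, chr8:128358604-128503363, plus strand), the co-receptor that enhances VEGFA signalling through KDR, was the only one of the 9 genes whose groups did not overlap. It measured 204.7, 153.6 and 197.4 CPM in hearts of the Zeb2 fl/fl group, against 209.9, 205.3 and 218.3 CPM in Zeb2 cKO hearts. The nearest values of the groups, 204.7 and 205.3 CPM, were almost the same. Among all tested genes 3.39% did not overlap with the higher values in Zeb2 cKO and 6.36% did not overlap in either direction, beside which 1 of 9 is a single gene. Without Zeb2 fl/fl replicate 2 it was again 1 of 9, where 8.07% of all genes were separate in this direction and 15.5% in either. Means were 185.2 ± 27.6 and 211.2 ± 6.599 CPM (SD, n = 3), with an exact permutation p of 0.1, the smallest that 3 against 3 can give. The log2 change was 0.19 (SE 0.16, interval -0.19 to 0.57, edgeR adjusted p = 0.957), and 0.074 without Zeb2 fl/fl replicate 2.

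Nrp2 (ENSMUSG00000025969, chr1:62703285-62818695, plus strand), a co-receptor for VEGFC and FLT4 on lymphatic and venous endothelium, had the change nearest to 0. It measured 60.7, 46.3 and 54.5 CPM in hearts of the Zeb2 fl/fl group, against 41.0, 56.1 and 64.5 CPM in Zeb2 cKO hearts. Here the lowest and the highest library were both Zeb2 cKO hearts. Means were 53.8 ± 7.23 and 53.9 ± 11.9 CPM (SD, n = 3; exact permutation p = 1), with a log2 change of 0.00085 (SE 0.20, interval -0.47 to 0.47) and of -0.094 without Zeb2 fl/fl replicate 2.

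**Figure D2:**
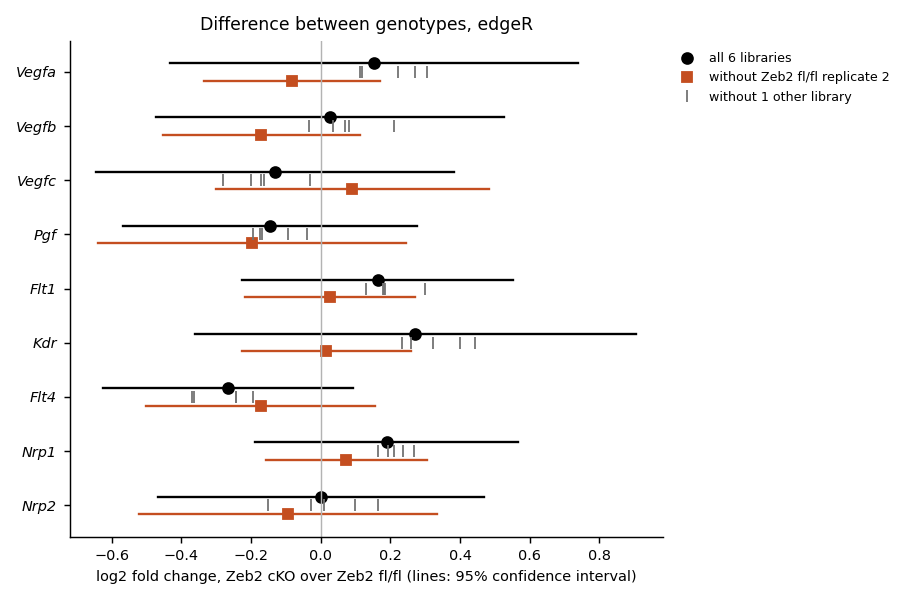
Log2 fold change of each gene, Zeb2 cKO minus Zeb2 fl/fl, with the 95% confidence interval of edgeR's quasi-likelihood fit, for all 6 libraries (circles) and without Zeb2 fl/fl replicate 2 (squares), and grey ticks for the value without 1 other library. Every interval spans 0, and without that library Kdr moves from 0.27 to 0.016.

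Much of the spread in the Zeb2 fl/fl group came with a single heart. The lowest library was Zeb2 fl/fl replicate 2 for Vegfa, Vegfb, Flt1, Kdr and Nrp1, and it was the highest for Vegfc and Flt4. Over all tested genes it was the lowest library for 34.6% and the highest for 35.2%. Without it the number of genes with a change above 0 went from 6 to 4 of 9, with 50.9% of all genes above 0. The CV of Kdr was 34.0% in the 3 Zeb2 fl/fl hearts and 6.55% in the 3 Zeb2 cKO hearts, whereas counting error, which leaves out other technical noise, was at most 1.85%. For Vegfa the same values were 31.0%, 8.65% and at most 2.02%.

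**Figure D3:**
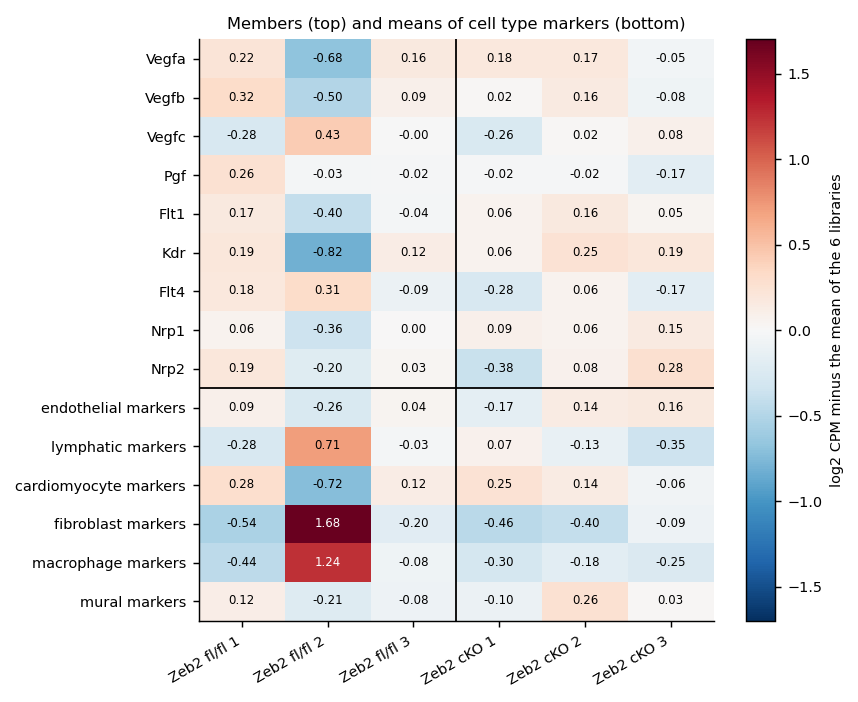
Deviation of each gene in each library from its mean over the 6 libraries, on the log2 CPM scale, for the 9 genes and, below the line, the mean of each cell type marker list (red above, blue below the mean). In Zeb2 fl/fl replicate 2 the deviations are low for Kdr, Vegfa and the cardiomyocyte markers and high for the fibroblast and macrophage markers.

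Levels of different genes were compared per kilobase of merged exons (RPKM). In Zeb2 fl/fl hearts Vegfa was at 20.4 ± 6.32, Nrp1 at 18.9 ± 2.82, Kdr at 12.2 ± 4.14 and Vegfb at 10.6 ± 2.88 RPKM (SD, n = 3). Nrp2 at 4.55 ± 0.611 and Flt1 at 4.21 ± 0.812 RPKM came next, before Flt4 at 2.26 ± 0.313, Vegfc at 1.83 ± 0.466 and Pgf at 0.712 ± 0.0880 RPKM. The Zeb2 cKO hearts had the same order except that Flt1 (4.72 ± 0.206) came before Nrp2 (4.55 ± 1.01). Vegfa and Nrp1, Kdr and Vegfb, Nrp2 and Flt1, and Flt4 and Vegfc were neighbours whose ranges over the 6 libraries overlapped, whereas those of Nrp1 and Kdr, Vegfb and Nrp2, Flt1 and Flt4, and Vegfc and Pgf did not. Vegfa was thus the ligand with the highest level, and Vegfc and Pgf were the lowest of all 9. Length matters for the upper end: per kilobase of the longest annotated transcript, Nrp1 came first with 50.8 ± 7.58, Vegfa followed with 25.3 ± 7.84 in Zeb2 fl/fl hearts, and Flt1 (8.25 ± 1.59) came before Nrp2 (8.01 ± 1.08).

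The ligands were also set beside markers of cardiomyocytes, the cells in which Zeb2 was deleted. Relative to the mean of the 13 cardiomyocyte markers, log2 Vegfa was -4.52, -4.41 and -4.41 in the Zeb2 fl/fl group and -4.52, -4.42 and -4.44 in the Zeb2 cKO group. The groups differed by -0.011 (exact permutation p = 0.5). The 6 values had an SD of 0.052, where the SD of the Vegfa level itself was 0.35. Only 14 of 14746 tested genes (0.0949%) had an SD at or below that of Vegfa on this scale, and 0 of the 13 markers did. Without Zeb2 fl/fl replicate 2 the SD was 0.054, which 0.624% of genes reached. This closeness depended on the mean of the markers. Relative to their median, Vegfa was at -4.34, -3.65 and -4.04 in the Zeb2 fl/fl group and at -4.18, -4.12 and -4.28 in the Zeb2 cKO group, with an SD of 0.25, a difference of -0.19 and the highest value in Zeb2 fl/fl replicate 2. Vegfb differed by -0.15 relative to the mean (exact permutation p = 0.4), by -0.075 without Zeb2 fl/fl replicate 2 and by -0.33 relative to the median.

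For Vegfc and Pgf, Zeb2 fl/fl replicate 2 was the library farthest from the others on this scale. Relative to the marker mean, Vegfc was at -7.70 in Zeb2 fl/fl replicate 2 and between -9.41 and -8.71 elsewhere, and Pgf at -9.25 against -10.20 to -9.96. Their group differences were -0.32 (exact permutation p = 0.9) and -0.35 (p = 0.2, exact permutation), and without Zeb2 fl/fl replicate 2 they were 0.18 and -0.094. Without that library the SD of relative Pgf was 0.088, which 4.67% of genes reached, against 0.11 and 9.13% for Vegfb. Relative to the marker median the Pgf difference was -0.53 and the groups did not overlap (exact permutation p = 0.1, the smallest possible). On that scale Pgf was at -9.78, -8.49 and -9.72 in the Zeb2 fl/fl group and at -9.86, -9.80 and -9.90 in the Zeb2 cKO group. Only Zeb2 fl/fl replicate 2 lay far from the rest, and how many of all genes separate on this scale was not tested. Over the 6 libraries the correlation with the cardiomyocyte marker mean was 0.992 for Vegfa, 0.942 for Vegfb, -0.938 for Vegfc and 0.372 for Pgf. The correlation of Vegfa with the fibroblast marker mean was -0.988. All of these values rest on the same 6 libraries, 1 of which stood apart.

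Receptors were set beside 21 endothelial markers. Relative to their mean, log2 Kdr was 1.97, 1.31 and 1.95 in the Zeb2 fl/fl group and 2.10, 1.98 and 1.90 in the Zeb2 cKO group, so that Zeb2 fl/fl replicate 2 remained low on this scale too. The difference of 0.25 (exact permutation p = 0.4) was 0.032 without it and 0.15 relative to the median of the markers. Nrp1 was at 2.58, 2.51 and 2.57 in the Zeb2 fl/fl group and at 2.87, 2.53 and 2.59 in the Zeb2 cKO group, and on this scale its groups overlapped (difference 0.11, exact permutation p = 0.4). The Nrp1 difference was 0.090 without Zeb2 fl/fl replicate 2, 0.0089 without Zeb2 cKO replicate 1 and 0.012 relative to the median. It was larger, 0.18, without Zeb2 cKO replicate 2 (exact permutation p = 0.1, the smallest possible) and 0.15 without Zeb2 cKO replicate 3. Flt1, Flt4 and Nrp2 differed by 0.091, -0.35 and -0.10, with exact permutation p of 0.6, 0.3 and 0.5. Without Zeb2 fl/fl replicate 2 these differences were 0.046, -0.15 and -0.10, and without Zeb2 cKO replicate 1 they were 0.00034, -0.38 and -0.026. Relative to the median of the markers Nrp2 differed by -0.20, and its groups did not overlap (exact permutation p = 0.1). On that scale it was at 0.91, 0.84 and 0.85 in the Zeb2 fl/fl group and at 0.42, 0.76 and 0.81 in the Zeb2 cKO group. Zeb2 cKO replicate 1 lay farthest from the rest, and how many of all genes separate on this scale was not tested. The endothelial markers themselves summed to 790 to 972 CPM in the Zeb2 fl/fl group and to 831 to 1019 CPM in the Zeb2 cKO group.

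**Figure D4:**
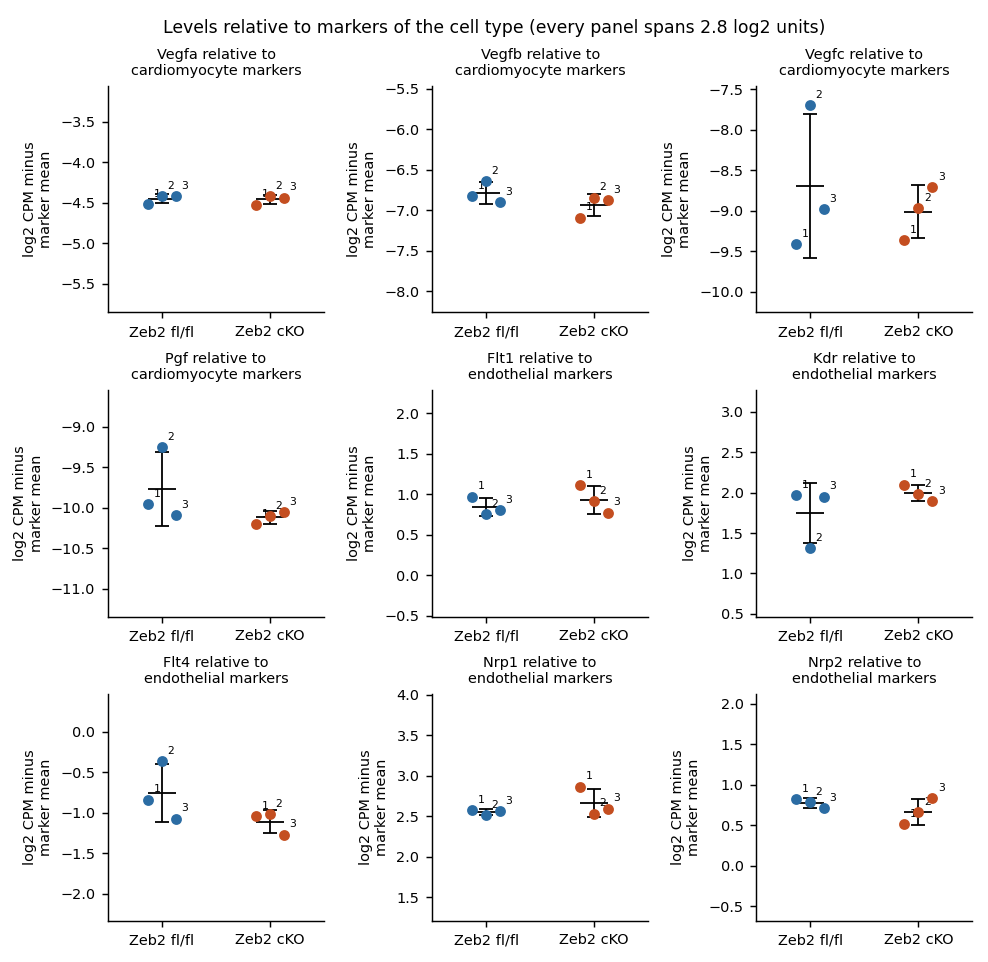
Log2 level of each ligand relative to the mean of 13 cardiomyocyte markers and of each receptor and neuropilin relative to the mean of 21 endothelial markers, with a numbered point per library, the group mean as a horizontal line and the SD as whiskers. Vegfa lies between -4.52 and -4.41 in all 6 hearts, while Kdr in Zeb2 fl/fl replicate 2 lies at 1.31 and at 1.90 or above elsewhere.

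The genes around the receptors were read from lists of the pathway, and 0 genes of any list passed an adjusted p of 0.05 by edgeR. Beside all tested genes, of which 1.04% had an unadjusted p under 0.05 with a higher level in Zeb2 cKO and 0.861% with a lower level, the 30 partners of VEGF and its receptors had 0 and 0. Their median log2 change was -0.30, against -0.0069 for all genes, with 21 of 30 below 0, and it was 0.012 without Zeb2 fl/fl replicate 2. Leaving out Zeb2 fl/fl replicate 1 gave 9 of 30 with an unadjusted p under 0.05 and a lower level, and 1 with a higher level. In that setting 1134 of 15075 tested genes passed this limit in either direction, against 280 of 14746 with all 6 libraries. Leaving out Zeb2 fl/fl replicate 3 gave 4 with a lower level, where 379 of 15075 tested genes passed in either direction. The smallest p in this list were those of Ccn2 and Thbs1, matricellular proteins that can bind VEGFA. Ccn2 measured 80.8, 339.9 and 87.5 CPM in hearts of the Zeb2 fl/fl group, against 39.0, 49.0 and 93.1 CPM in Zeb2 cKO hearts. Its log2 change was -1.49 (SE 0.63), and -0.48 without Zeb2 fl/fl replicate 2. For Thbs1 the change was -1.75 (SE 0.77) and -0.21 without it.

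Inside the cell, the 51 genes of VEGF signal transduction had a median change of -0.056 (-0.029 without Zeb2 fl/fl replicate 2). With all 6 libraries 0 of 51 were under an unadjusted p of 0.05. With lower values in Zeb2 cKO, 2 passed without Zeb2 fl/fl replicate 1, 2 without Zeb2 cKO replicate 3 and 1 without Zeb2 fl/fl replicate 2. Plcg2, a phospholipase C, had -0.33 (SE 0.16) and Nfatc2, a calcineurin-dependent transcription factor, had -0.24 (SE 0.13), and without that library the values were -0.25 and -0.24. The 15 transcription factors of endothelial cells had a median of -0.014 (-0.020 without that library) and 0 of 15 past that limit with all 6 libraries. With lower values in Zeb2 cKO, 2 passed without Zeb2 cKO replicate 3, 1 without Zeb2 fl/fl replicate 1 and 2 without Zeb2 fl/fl replicate 2. In these settings 373 of 14961, 1134 of 15075 and 393 of 14966 tested genes passed in either direction. Klf4 had -0.37 (SE 0.20) and -0.53 without Zeb2 fl/fl replicate 2, and Foxc1 had -0.61 (SE 0.35) and -0.088 without that library. The 11 genes of class 3 semaphorins and plexins had a median of -0.15 and 0 of 11, and -0.044 without Zeb2 fl/fl replicate 2. In that list Sema3d, a secreted semaphorin, had -1.16 (SE 0.67) and Plxna4, a plexin, had -0.34 (SE 0.26), and without that library the values were 0.086 and 0.039.

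Oxygen sensing lies upstream of Vegfa. The 9 genes of this list had a median log2 change of -0.077 (-0.083 without Zeb2 fl/fl replicate 2) and 0 of 9 under an unadjusted p of 0.05, with Egln3, a prolyl hydroxylase of HIF, at -0.26 (SE 0.19) and Arnt, the partner of HIF alpha subunits, at -0.13 (SE 0.11). Without that library they had -0.37 and -0.097. Of 23 HIF target genes 2 had an unadjusted p under 0.05 with a lower level in the Zeb2 cKO group, where 0.861% of all genes did. The count was 1 without Zeb2 fl/fl replicate 1 or 2, and 0 without Zeb2 fl/fl replicate 3, Zeb2 cKO replicate 1 or Zeb2 cKO replicate 2. Among them was Ddit4, an inhibitor of mTOR signalling, with -0.73 (SE 0.30, edgeR adjusted p = 0.957) and -0.88 without Zeb2 fl/fl replicate 2. The median of this list was -0.058, and -0.051 without Zeb2 fl/fl replicate 2.

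Of 23 genes that respond to VEGF in endothelial cells, 2 had an unadjusted p under 0.05, both with lower values in the Zeb2 cKO group (0.861% of all genes), and 5 of 23 lay above 0 (48.6% of all genes). The first count was 6 without Zeb2 fl/fl replicate 1, 3 without Zeb2 fl/fl replicate 3, and 1 without Zeb2 fl/fl replicate 2, Zeb2 cKO replicate 2 or Zeb2 cKO replicate 3. The second was 10 without Zeb2 fl/fl replicate 1, 9 without Zeb2 cKO replicate 1 and 8 without Zeb2 cKO replicate 2. The first count also rose over all tested genes. In either direction, 280 of 14746 had an unadjusted p under 0.05 with all 6 libraries. Without Zeb2 fl/fl replicate 1 it was 1134 of 15075, and without Zeb2 fl/fl replicate 3 it was 379 of 15075. The orphan nuclear receptor gene Nr4a3 measured 4.09, 2.96 and 3.02 CPM in hearts of the Zeb2 fl/fl group, against 1.52, 1.96 and 1.81 CPM in Zeb2 cKO hearts, without overlap. Its log2 change was -0.93 (SE 0.20, edgeR unadjusted p = 0.00272, adjusted p = 0.957), and -1.01 without Zeb2 fl/fl replicate 2. Cxcr4, a chemokine receptor of tip cells, was at 7.89, 9.39 and 7.47 CPM against 6.30, 7.14 and 6.16 CPM, also without overlap, with a log2 change of -0.34 (SE 0.14, edgeR adjusted p = 0.957) and -0.23 without Zeb2 fl/fl replicate 2. In this list 3 of 23 genes (13%) did not overlap with the lower values in Zeb2 cKO, against 2.97% of all genes. In the other pathway lists this share was 0% to 3.33%, and 4.35% of the HIF targets did not overlap with the higher values in Zeb2 cKO. The third gene was Plvap, a protein of endothelial fenestrae, named here after its values were seen. It measured 5.04, 15.7 and 4.77 CPM in the Zeb2 fl/fl group, against 4.14, 3.89 and 4.56 CPM in the Zeb2 cKO group. Its log2 change was -1.02 (SE 0.47), and -0.22 without Zeb2 fl/fl replicate 2. The median of the 23 genes was -0.16, and -0.22 without Zeb2 fl/fl replicate 2. It was -0.025 without Zeb2 fl/fl replicate 1, -0.038 without Zeb2 cKO replicate 1 and -0.30 without Zeb2 cKO replicate 2. None of these genes passed the adjusted threshold.

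Over the 6 libraries, the number of genes that followed a member with r above 0.95 ran from 11 (Pgf) to 871 (Vegfa). This describes 6 points, of which 1 stood apart. For Vegfa the genes with the most similar log2 CPM were Med24, Hbs1l and Hspa9 (Pearson r of 0.999 each), among 871 genes with r above 0.95. Kdr was most like Becn1, Aqp7 and Vwa8 (r of 0.997, 0.997 and 0.996), Flt1 like Fam126a, Pbxip1 and Snapc2, and Nrp1 like Pvr, Zfp142 and Slc22a23. Vegfb was most like Szrd1, Son and Gm5421, Vegfc like Arhgap17, Pkd2 and Lig1, and Nrp2 like Dyrk2, Zfp414 and Pxdn. For Flt4 these were Gm13736, Zdbf2 and Sel1l with 23 genes above 0.95, and for Pgf they were Tbc1d19, Tox and Mia3 with 11 genes. Ligand and receptor of the main pair, Vegfa and Kdr, had an r of 0.944 over the 6 libraries and of -0.173 over the 5 without Zeb2 fl/fl replicate 2. For Vegfa and Vegfb the values were 0.946 and 0.774, and for Vegfa and Vegfc -0.888 and -0.658.

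Sequence shared with other genes was short. No exon of the 9 genes overlapped another gene except for 80 bases of Nrp1 that are shared with Mir1903 on the same strand. Stretches of at least 75 bases with at least 95% identity to transcripts of other genes made up 2.33% of the longest transcript of Flt4, 2.19% of that of Nrp1 and 1.58% of that of Nrp2, and none were found for the other 6 genes.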

How the data were processed

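RNA-seq of cardiac tissue was available for 3 WT (Zeb2 fl/fl) and 3 Zeb2 cKO mice, grouped by the sample labels. The authors deposited 1 table of raw read counts per gene. According to the methods, stranded libraries were made from total RNA depleted of ribosomal RNA, aligned and counted on Gencode M4 with the STAR workflow. The submitters' processing notes name DESeq. The STAR version, its strand option and the handling of reads with several matches are not given in the sources used here. All 6 columns were matched to a sample, with 0 unmatched columns.

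From the counts, CPM and RPKM were computed with TMM library sizes in edgeR 4.0.16 (R 4.3.3), after filtering by filterByExpr at default settings. The genotypes were compared by the quasi-likelihood test (glmQLFit, glmQLFTest; prior count 0.125). The Benjamini-Hochberg adjustment covered the 14746 tested genes. A prior count of 2 was used for log2 CPM. For single genes, two-sided exact permutation tests were added, and 3 against 3 cannot give less than 0.1. DESeq2 1.42.0, RLE normalization, no filter, robust dispersions, a replicate block, removal of mitochondrially encoded genes and leaving out each library were tried as alternatives. The scripts were tested on simulated data. Coordinates and exon lengths are from Gencode M21 on GRCm38, and promoters are from RefSeq on GRCm38.p6. Near-identical stretches were searched with BLAST 2.17.0.

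The 9 genes and the lists of pathway and marker genes were chosen with earlier results of these data known. Named genes are the 9 members, Zeb2, Pecam1, the 2 genes with the smallest p in each pathway list, and the 3 genes most correlated with each member, of which 1 pathway gene is not reported here. Of 6 lymphatic markers 5 were used, since Ccl21a matched several identifiers. The labels name 3 mice per group, and whether the same replicate number ties animals of the groups together was checked by the correlation of their deviations from the group means: r was 0.088, -0.14 and -0.087 for the 3 numbers, so the numbers were not treated as pairs.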

Additional observations from a re-analysis of the deposited data

How the results depend on the processing

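By edgeR 0 genes passed an adjusted p of 0.05 in all settings. In the main setting 280 of 14746 had an unadjusted p under 0.05, and 122 to 1134 did when a library was left out. Without the filter on low counts it was 600 of 24115. DESeq2 called 1 gene higher in Zeb2 cKO, Slc46a2 (log2 change 4.20, adjusted p = 0.0382), and 429 at the unadjusted limit. No setting called a VEGF gene, and 0 of 9 passed the unadjusted limit in any of 13 settings. When 1 library was left out, the log2 changes ranged from -0.083 to 0.30 for Vegfa, from -0.17 to 0.21 for Vegfb, from -0.28 to 0.091 for Vegfc, from -0.20 to -0.039 for Pgf, from 0.026 to 0.30 for Flt1, from 0.016 to 0.44 for Kdr, from -0.37 to -0.17 for Flt4, from 0.074 to 0.27 for Nrp1 and from -0.15 to 0.16 for Nrp2. The sign turned for Vegfa, Vegfb and Vegfc (-0.083, -0.17 and 0.091) without Zeb2 fl/fl replicate 2, for Vegfb (-0.035) without Zeb2 cKO replicate 2, and for Nrp2 (-0.094, -0.026 and -0.15) without Zeb2 fl/fl replicate 2, Zeb2 cKO replicate 2 or Zeb2 cKO replicate 3. Relative to the cardiomyocyte markers the difference ranged from -0.045 to 0.021 for Vegfa and from -0.68 to 0.18 for Vegfc, and turned sign for Vegfa (0.0065, 0.0066 and 0.021) without Zeb2 fl/fl replicates 2 or 3 or Zeb2 cKO replicate 1, and for Vegfc (0.18) without Zeb2 fl/fl replicate 2. With the median of the markers in place of their mean, the Flt1 difference turned to -0.0071, that of Vegfa became -0.19 and that of Vegfc -0.49. The cause was not tested.

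Same-numbered libraries did not deviate together, and 0 of 3 Zeb2 fl/fl libraries correlated best with their own number. With the replicate number as a replicate block, 0 genes passed the adjusted threshold, 247 had an unadjusted p under 0.05, and Nrp2 turned to -0.014.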

Other observations

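Ratios between the genes of the pathway, as log2 differences of CPM within a library, were not part of the comparisons above. Kdr exceeded Flt1 by 1.00, 0.56 and 1.14 in Zeb2 fl/fl replicates 1 to 3 and by 0.98, 1.07 and 1.12 in Zeb2 cKO replicates 1 to 3, so that only Zeb2 fl/fl replicate 2 lay apart. Nrp1 exceeded Nrp2 by 1.75, 1.73 and 1.86 in Zeb2 fl/fl and by 2.36, 1.87 and 1.76 in Zeb2 cKO hearts, with the highest value in Zeb2 cKO replicate 1. Vegfa exceeded Vegfc by 4.89, 3.28 and 4.57 in Zeb2 fl/fl and by 4.84, 4.55 and 4.27 in Zeb2 cKO hearts. These ratios are not corrected for gene length, and they were not tested. The 6 adipocyte markers, of which only 1 passed the filter on low counts, summed to 0.342 to 0.911 CPM in Zeb2 fl/fl hearts. In Zeb2 cKO replicates 1 to 3 they summed to 2.96, 1.15 and 1.02 CPM, so that replicate 1 lay apart. The 10 mural cell markers summed to 708 to 1065 CPM in Zeb2 fl/fl and to 965 to 1071 CPM in Zeb2 cKO hearts.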
